A study of Mus musculus with 33 samples.

Results

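The Rab GTPases form the largest branch of the Ras superfamily of small GTP-binding proteins, and 57 genes named Rab with a number, out of 24054 genes in the count files, were followed across 9 sorted mouse cell populations. Members were taken by symbol alone (Rab, a number and at most a letter and a digit), with no filter on measured values. They, the gene lists and the tests were nevertheless chosen with earlier results of these data known. The populations were sorted from kidney and spleen of C57BL/6 mice aged 10 weeks with the genotype Clec9a-Cre/Cre Rosa-YFP/YFP. Both copies of Clec9a carry Cre in every group, and YFP marks cells that express Clec9a or descend from cells that did. All kidney cells were CD45+ Ly6C- MHCII+. Kidney cells with CD64+ F4/80hi CD11blow staining were split into F4/80hi YFP- (n = 3 libraries) and F4/80hi YFP+ (n = 3). The CD64+ F4/80low CD11bhi gate was split by YFP as well, with 2 libraries for CD11bhi YFP- cells and 5 for the YFP+ fraction, CD11bhi YFP+. Kidney conventional dendritic cells were CD11c+ CD64- YFP+, with CD24 for type 1 (kidney cDC1, n = 6) and CD11b for type 2 (kidney cDC2, n = 5). From spleen came autofluorescent F4/80+ YFP- red pulp macrophages (RPM, n = 3). Spleen dendritic cells lacked autofluorescence and were MHCII+ CD11c+ YFP+, with CD24 and CD205 for spleen cDC1 (n = 3) and CD11b for spleen cDC2 (n = 3). The labels do not say which libraries came from separate animals, so p-values measure only the spread between libraries.

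A Rab protein works as a switch. Exchange factors (GEFs) load it with GTP and set it on a membrane, effectors such as tethers, motors and sorting complexes bind the loaded form, and GTPase-activating proteins (GAPs) turn it off, after which GDI extracts it. Each Rab marks its own compartment, for example Rab1 between endoplasmic reticulum and Golgi, Rab5 on early endosomes, Rab11 on recycling endosomes, Rab7 on late endosomes and lysosomes, and Rab32 and Rab38 on lysosome-related organelles such as melanosomes. Macrophages and dendritic cells use these routes to take up particles, mature phagosomes and load antigen onto MHC molecules, and cDC1 are the subset best known for cross-presenting taken-up antigen on MHC class I.

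Gene reads per library ran from 8729224 to 23000575. Levels are CPM, the reads of a gene scaled to the TMM-adjusted size of its library. Differences are log2 folds of the first-named against the second-named population. They come from edgeR's quasi-likelihood test fitted to all 33 libraries with a term for the library-name prefix. The test gives no SE, so the SE shown is the absolute log2 fold over the square root of its F statistic. The 95% intervals of log2 folds were built from that SE, and both are approximate. A member was called where its Benjamini-Hochberg adjusted p over the 14258 genes tested was under 0.05 and its absolute log2 fold at least 1. Summed markers set cDC1 apart from cDC2 in each tissue, and RPM from the other groups. The cDC1 list (6 genes) stood at mean levels of 6813 CPM in kidney cDC1 and 6578 in spleen cDC1, against 176 and 158 in the cDC2 of the same tissues. The cDC2 list (6 genes) stood at 5943 CPM in kidney cDC2 and 1889 in spleen cDC2, against 23.4 and 14.1 in cDC1. Neither list was empty outside its subset, since the cDC1 list reached means of 1631 to 1969 CPM in F4/80hi cells and RPM, and the cDC2 list 6474 and 6811 in the CD11bhi groups, 3372 in RPM and 2003 and 2057 in F4/80hi cells. The last 3 means lie above that of spleen cDC2, so the cDC2 list does not set spleen cDC2 apart from macrophages. The macrophage list (8 genes) stood at 22980 to 27100 CPM in F4/80hi cells and RPM, at 4460 and 4827 in the CD11bhi groups and at 341 to 1131 in dendritic cells, and the red pulp macrophage list (5 genes) at 34590 CPM in RPM against at most 447 elsewhere. Of the 7 libraries of sort code SR17_017, kidney cDC1 replicate 4 and kidney cDC2 replicate 3 stood apart from their groups in 1 or more Rab genes. Without these 7 libraries, 9 members in place of 12 were called in kidney cDC1 against cDC2, and 7 in place of 12 in kidney against spleen cDC2.

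Rab32, Rab11a and Rab39 were the members called higher in cDC1 than in cDC2 of both tissues with a mean of 10 CPM or more, and the stretch before the start of each gene is given for that reason. Sequences are the RefSeq promoter windows of build GRCm38.p6, 250 bases before the start, on the gene's own strand and with bases that fall in an annotated exon left off. They lie at chr10:10558266-10558457 for Rab32 (minus strand, 58 bases left off), at chr9:64737759-64738006 for Rab11a (minus strand, 2 left off) and at chr9:53706233-53706482 for Rab39 (minus strand, none left off). Capitals mark a match to a searched motif, and the only match in these stretches was the PU.1 core, as its reverse complement.
Rab32: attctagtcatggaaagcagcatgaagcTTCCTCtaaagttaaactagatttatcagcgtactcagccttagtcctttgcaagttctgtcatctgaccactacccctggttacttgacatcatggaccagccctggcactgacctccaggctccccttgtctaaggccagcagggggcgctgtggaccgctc
Rab11a: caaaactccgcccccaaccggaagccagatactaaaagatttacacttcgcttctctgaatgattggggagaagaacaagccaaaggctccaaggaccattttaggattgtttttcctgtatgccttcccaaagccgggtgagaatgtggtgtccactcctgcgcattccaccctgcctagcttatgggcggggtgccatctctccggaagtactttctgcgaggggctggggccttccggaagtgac
Rab39: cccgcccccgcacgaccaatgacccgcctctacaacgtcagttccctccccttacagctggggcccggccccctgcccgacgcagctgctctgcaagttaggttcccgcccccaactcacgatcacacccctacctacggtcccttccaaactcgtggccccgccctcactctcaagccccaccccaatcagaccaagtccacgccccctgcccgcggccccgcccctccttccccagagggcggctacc

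The stretches differed in base composition. That of Rab39 was 68.8% G and C, that of Rab11a 53.2% and that of Rab32 51.6%, beside a median of 52.4% over all 32851 windows. Windows were found for 47 of the 57 members (59 windows, since some genes have more than 1 start). Of 5 motifs searched on both strands, the E-box CACGTG was in 8.47% of the Rab windows and 6.02% of all windows. The PU.1 core GAGGAA, named for a factor of myeloid cells, was in 13.6% and 23.3%. The interferon response element, GAAA and GAAA with NN between, was in 1.69% and 2.98%, the AP-1 motif TGANTCA in 3.39% and 6.75%, and the NF-kB motif, GGGA and CC with NNNN between, in 10.2% and 17.6%. A match here describes letters in a window and is no evidence of binding.

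Most of the family was broadly transcribed. Of the 57 members, 29 had a mean of 10 CPM or more in all 9 populations, 12 in some only and 16 in none, and each had at least 1 read in some library. Enough reads for a test were present for 52 members. The 5 others, Rab15, Rab33a, Rab3c, Rab44 and Rab9b, had 38, 30, 3, 1 and 10 reads over all libraries. Of the 52 tested, 45 varied over the 9 populations (adjusted p under 0.05), where 74.2% of all genes tested did. The 7 that did not pass were the early endosome members Rab5a and Rab22a, the endoplasmic reticulum and Golgi members Rab2b and Rab18, and Rab28, Rab39b and Rab40b, with adjusted p from 0.0773 (Rab22a) to 0.362 (Rab5a). The highest mean fell in RPM for 17 of the tested members, in kidney cDC1 for 10, in spleen cDC1 for 9, in spleen cDC2 for 5, in each F4/80hi group for 4 and in each of the others for 1. Those 17 include Rab2b, Rab18, Rab22a and Rab28, which did not vary, and Rab42 at 3.52 CPM. The matching counts over all genes were not computed.

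**Figure D1:**
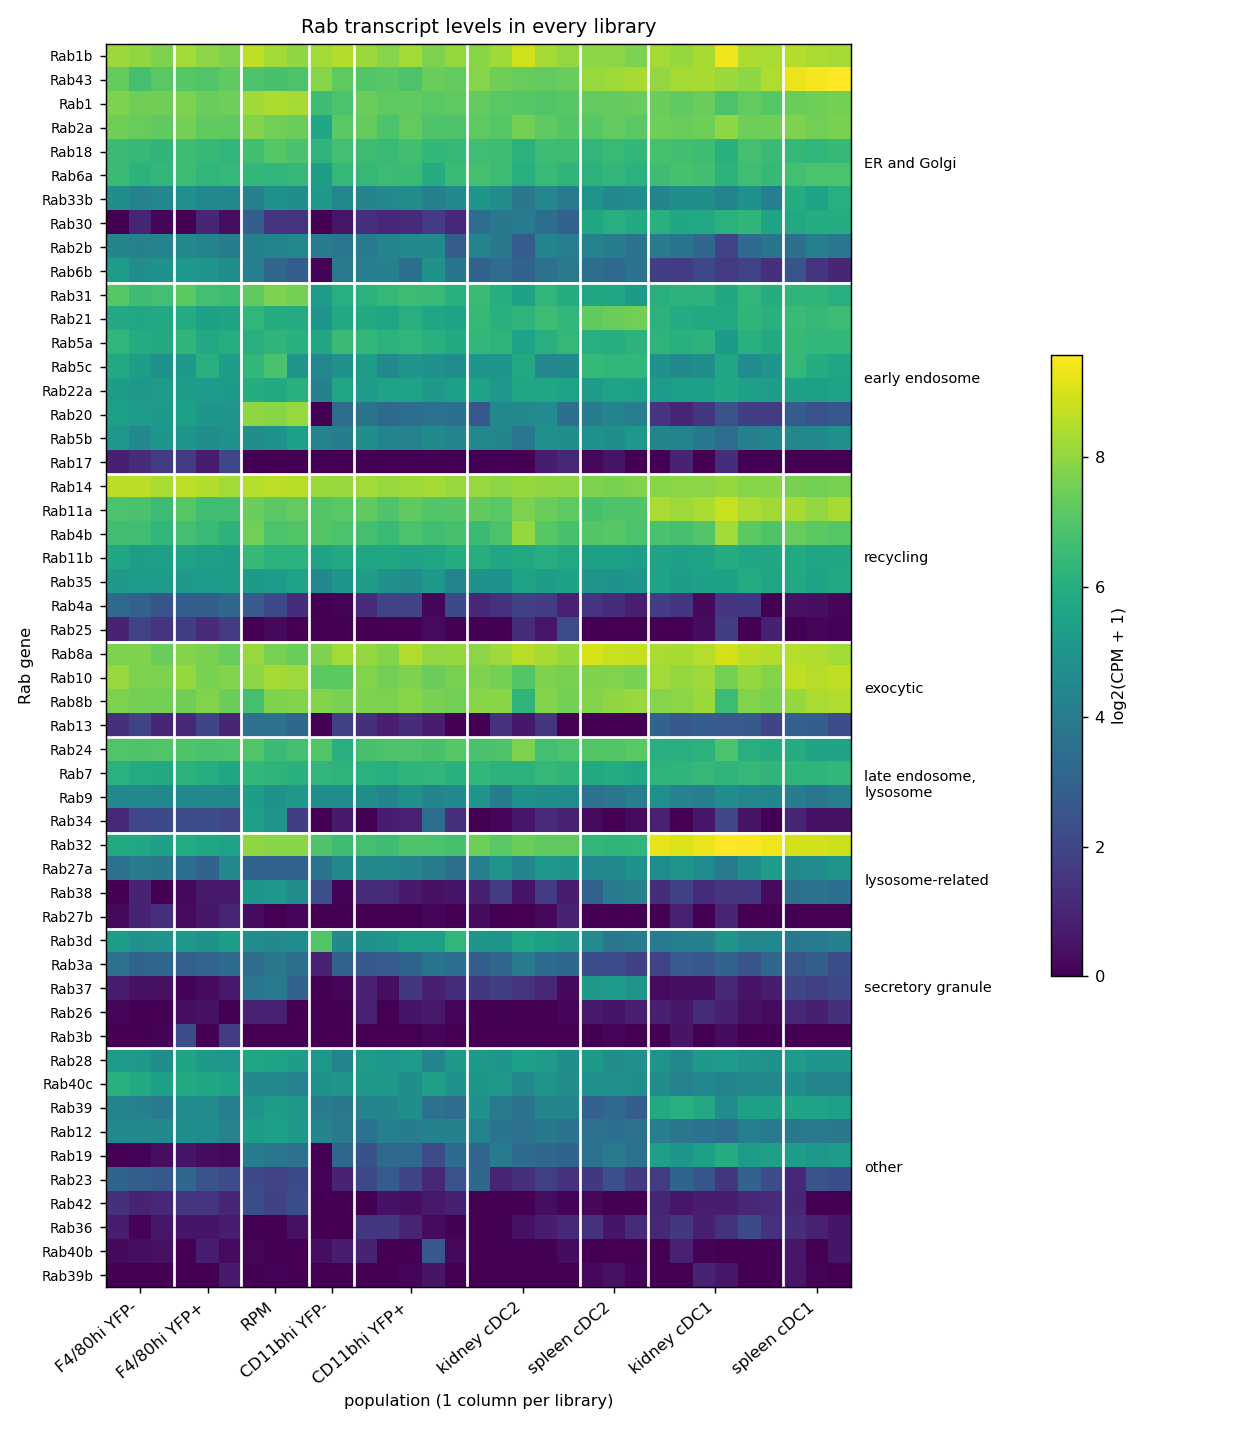
Levels of the 52 tested Rab genes (rows, ordered by compartment list) in the 33 libraries (columns, ordered by population), as log2(CPM + 1). Darker cells are lower, and Rab19, Rab30, Rab37 and Rab38 are near 0 in several populations.

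Length-scaled values allow genes to be compared. By mean TPM over the 9 populations, the late endosome GTPase Rab7 led at 385 TPM, followed by Rab1b of the early secretory route at 233, Rab8a, which carries cargo from Golgi and endosomes to the surface, at 221, Rab32 at 152 and the recycling GTPase Rab4b at 152. TPM come from RSEM, which gave Rab7 2.17 times its STAR count, so the lead of Rab7 is uncertain. Its group means lay between 325 ± 21.1 TPM in F4/80hi YFP- cells (SD, n = 3) and 453 ± 36.7 in spleen cDC1 (n = 3). Single libraries went down to 228 TPM in kidney cDC2 replicate 3 and 259 in kidney cDC1 replicate 4. Rab1b lay between 195 ± 16.3 TPM in F4/80hi YFP+ cells and 280 ± 21.96 in spleen cDC1, and Rab4b between 106 ± 6.23 in F4/80hi YFP+ cells and 202 ± 17.2 in spleen cDC2. Rab32 spread far more. It had 430 ± 59.8 TPM in kidney cDC1 (n = 6) and 371 ± 29.6 in spleen cDC1, then 170 ± 10.8 in RPM, 96.9 ± 20.3 in kidney cDC2 (n = 5), 79.3 ± 22.6 in the 2 CD11bhi YFP- libraries, 78.8 ± 4.22 over the 5 of CD11bhi YFP+ and 72.9 ± 3.01 in spleen cDC2. The lowest levels were 35.8 ± 1.498 and 35.7 ± 1.06 TPM in F4/80hi YFP- and YFP+ cells. Kidney cDC2 ran from 72.1 to 128.8 TPM, and its range overlapped those of both CD11bhi groups and spleen cDC2, which also overlapped each other. The ranges of kidney cDC1 and spleen cDC1 overlapped as well. Rab8a peaked elsewhere, with 405 to 508 TPM in the 3 spleen cDC2 libraries and means from 142 to 269 in the other groups.

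The summed TPM of all 57 members was highest in spleen cDC1 (3508 ± 163), RPM (3325 ± 199) and spleen cDC2 (3249 ± 108), with no overlap with any F4/80hi, CD11bhi or kidney cDC2 library. Kidney cDC1 had 2918 ± 359 (2245 to 3168), and the other kidney groups had means from 2155 in kidney cDC2 to 2293 in CD11bhi YFP+. The TPM scale itself differs between tissues, since the median of all genes on log2(TPM + 1) was -0.42 for kidney against spleen cDC2 and -0.15 for cDC1, while on CPM the median fold in cDC2 was 0.13 both for the members and for all genes. TPM is a share of each library's transcripts, so the sums measure neither cell number nor total RNA per cell. In bulk libraries of sorted cells, fewer cells with a transcript and less of it per cell cannot be told apart. Rab32 alone gave 14.7% ± 0.996 of the summed Rab TPM in kidney cDC1 and 10.6% ± 0.362 in spleen cDC1, against 5.10% in RPM, 4.48% in kidney cDC2, 2.24% in spleen cDC2 and 1.59% and 1.62% in the F4/80hi groups. The early endosome list (8 genes) took 24.96% ± 1.82 in RPM, 14.6% and 14.5% in the F4/80hi groups and 7.22% ± 0.896 in kidney cDC1. Rab20 alone gave 14.4% ± 1.63 in RPM and 3.14% ± 0.0366 in F4/80hi YFP- cells. Without it the list took 10.53% ± 1.13 in RPM and 11.46% ± 0.984 in F4/80hi YFP- cells. The libraries of these groups then overlapped (9.58% to 11.79% and 10.37% to 12.29%). Members that carry cargo to the surface (4 genes) took 20.4% ± 1.03 in spleen cDC2 and 10.34% ± 0.466 in RPM. Rab8a gave most of that gap, with 13.6% and 4.63%, and the other 3 genes together took 6.83% ± 0.351 and 5.71% ± 1.29.

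**Figure D2:**
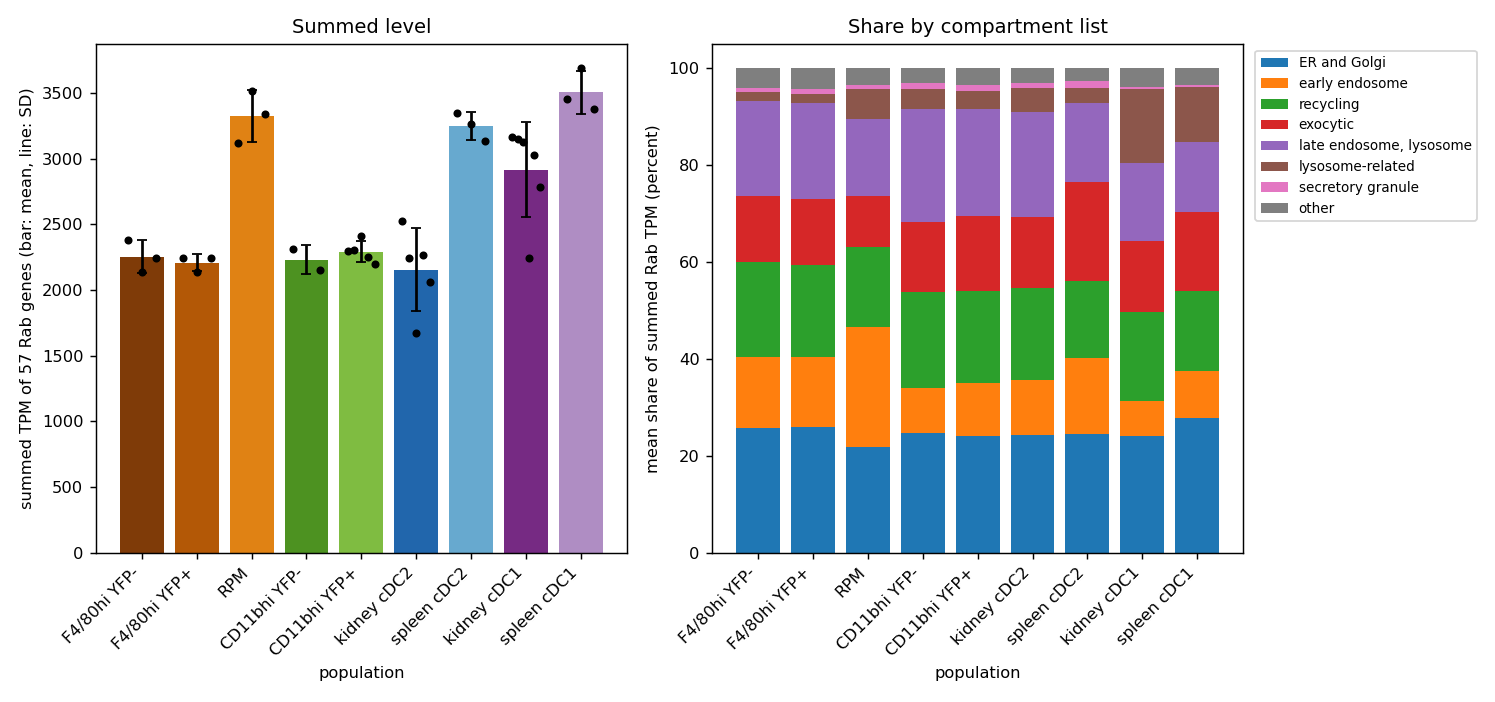
Left, summed TPM of the 57 Rab genes per library (points) with the mean of each population. Right, the share of that sum held by each compartment list, in percent. Lysosome-related organelle members hold 15.2% in kidney cDC1 and 1.89% in F4/80hi YFP- cells, and early endosome members hold 24.96% in RPM, of which Rab20 alone is 14.4%.

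The comparison of cDC1 with cDC2 asks how the Rab set differs between the dendritic cell subsets within a tissue. In kidney 12 of 52 tested members were called, 9 higher and 3 lower in cDC1 (15.7% of all genes were called), and in spleen 10 were called, 6 higher and 4 lower (14.6% of all genes). The median log2 fold was 0.09 over the members and -0.02 over all genes in kidney, and 0.20 and 0.00 in spleen. The same 7 members were called in both tissues and in the same direction, which is 58.3% of the 12 in kidney and 70% of the 10 in spleen. The matching share over all genes was not computed, so this overlap is not read as a trait of the family. Rab11a, Rab13, Rab32 and Rab39 were higher in cDC1, and Rab6b, Rab20 and Rab37 were lower.

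Among lysosome-related organelle members, Rab32 had the largest separation. In kidney cDC1 its level ran from 538 to 764 CPM with a median of 637, and in kidney cDC2 it was 174, 139, 173, 150 and 150. In spleen it was 500, 490 and 464 CPM in cDC1 and 80.1, 76.2 and 78.4 in cDC2. All cDC1 libraries lay far above all cDC2 libraries of their tissue, with log2 folds of 2.07 (SE 0.10, adjusted p = 1.91e-15) in kidney and 2.63 (SE 0.14, adjusted p = 2.31e-14) in spleen. The related Rab38 did not follow. Its log2 fold was 0.21 (95% interval -1.17 to 1.59) in kidney and -0.27 (-2.0 to 1.47) in spleen. Rab27a, which docks secretory lysosomes at the plasma membrane, had means of 25.8 CPM in kidney cDC1 and 26.0 in kidney cDC2, a log2 fold of 0.01 (-0.52 to 0.54). In spleen the Rab27a fold was 0.06 (-0.65 to 0.77).

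Rab11a, the GTPase of recycling endosomes, ran from 288 to 433 CPM with a median of 326 in kidney cDC1, against 149, 137, 205, 166 and 147 in kidney cDC2. In spleen it was 322, 260 and 316 in cDC1 and 109, 123 and 121 in cDC2. The libraries did not overlap in either tissue, and the log2 folds were 1.07 (SE 0.12, adjusted p = 1.99e-08) and 1.35 (SE 0.16, adjusted p = 1.06e-07). Without kidney cDC1 replicate 4, the highest library, the kidney value was 0.98 and below the fold threshold. Rab13, which traffics to the cell surface, was scarcer. Its mean was 5.53 CPM in kidney cDC1 and 0.775 in kidney cDC2 (log2 fold 2.76, SE 0.93), and 5.74 in spleen cDC1, at least 86.7-fold higher than in spleen cDC2, which had no read (a bound from 3 counts over the group that covers counting error only).

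Rab39, which acts on phagosomes and endosomes, ran from 23.4 to 64.5 CPM with a median of 48.3 in kidney cDC1, against 29.2, 15.04, 11.8, 20.2 and 19.05 in kidney cDC2. It was 47.7, 45.2 and 41.6 in spleen cDC1 and 7.14, 8.69 and 6.35 in spleen cDC2. The groups overlapped in kidney, through kidney cDC1 replicate 4, and were far apart in spleen, with log2 folds of 1.21 (SE 0.23, adjusted p = 0.000123) and 2.60 (SE 0.32, adjusted p = 2.54e-07). The kidney difference was smaller than the spleen difference by 1.38 (SE 0.37, adjusted p = 0.0198), in a test of the interaction that called 2 of 52 members (5.24% of all genes). That interaction was no longer called without the SR17_017 libraries (-1.25, adjusted p = 0.114), without spleen cDC2 replicate 1 (-1.34, 0.0604) or 3 (-1.28, 0.0744), without spleen cDC1 replicate 1 (-1.34, 0.0535) or without kidney cDC2 replicate 1 (-1.25, 0.0586). On log2(TPM + 1) it was -0.90 (adjusted p = 0.210).

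Rab30, a Golgi GTPase, was the other member with an interaction, of 2.44 (SE 0.68, adjusted p = 0.0247). It ran from 47.2 to 76.1 CPM with a median of 60.5 in kidney cDC1 and was 10.1, 13.8, 14.3, 10.1 and 7.16 in kidney cDC2, a log2 fold of 2.45 (SE 0.43, adjusted p = 4.78e-05). In spleen both subsets were as high as kidney cDC1, with 54.6, 59.6 and 60.2 CPM in cDC1 and 53.0, 63.1 and 56.2 in cDC2 (log2 fold 0.02, 95% interval -1.07 to 1.11). Kidney cDC2 were thus the dendritic cells with low Rab30. The interaction missed the threshold without any 1 of the 3 spleen cDC1 libraries (2.39 to 2.48, adjusted p = 0.0662 to 0.0780) and without spleen cDC2 replicate 2 (2.38, 0.0625) or 3 (2.46, 0.0514).

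Rab19 ran from 32.8 to 60.6 CPM with a median of 41.9 in kidney cDC1 and from 7.41 to 13.9 in kidney cDC2 (log2 fold 2.20, SE 0.49, adjusted p = 0.000926). In spleen it was 39.96, 33.4 and 37.2 CPM against 10.99, 14.99 and 10.9, with no overlap but no call (1.58, SE 0.64, adjusted p = 0.0800). The order of the subsets was the same in both tissues, and the spleen difference missed the threshold.

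**Figure D3:**
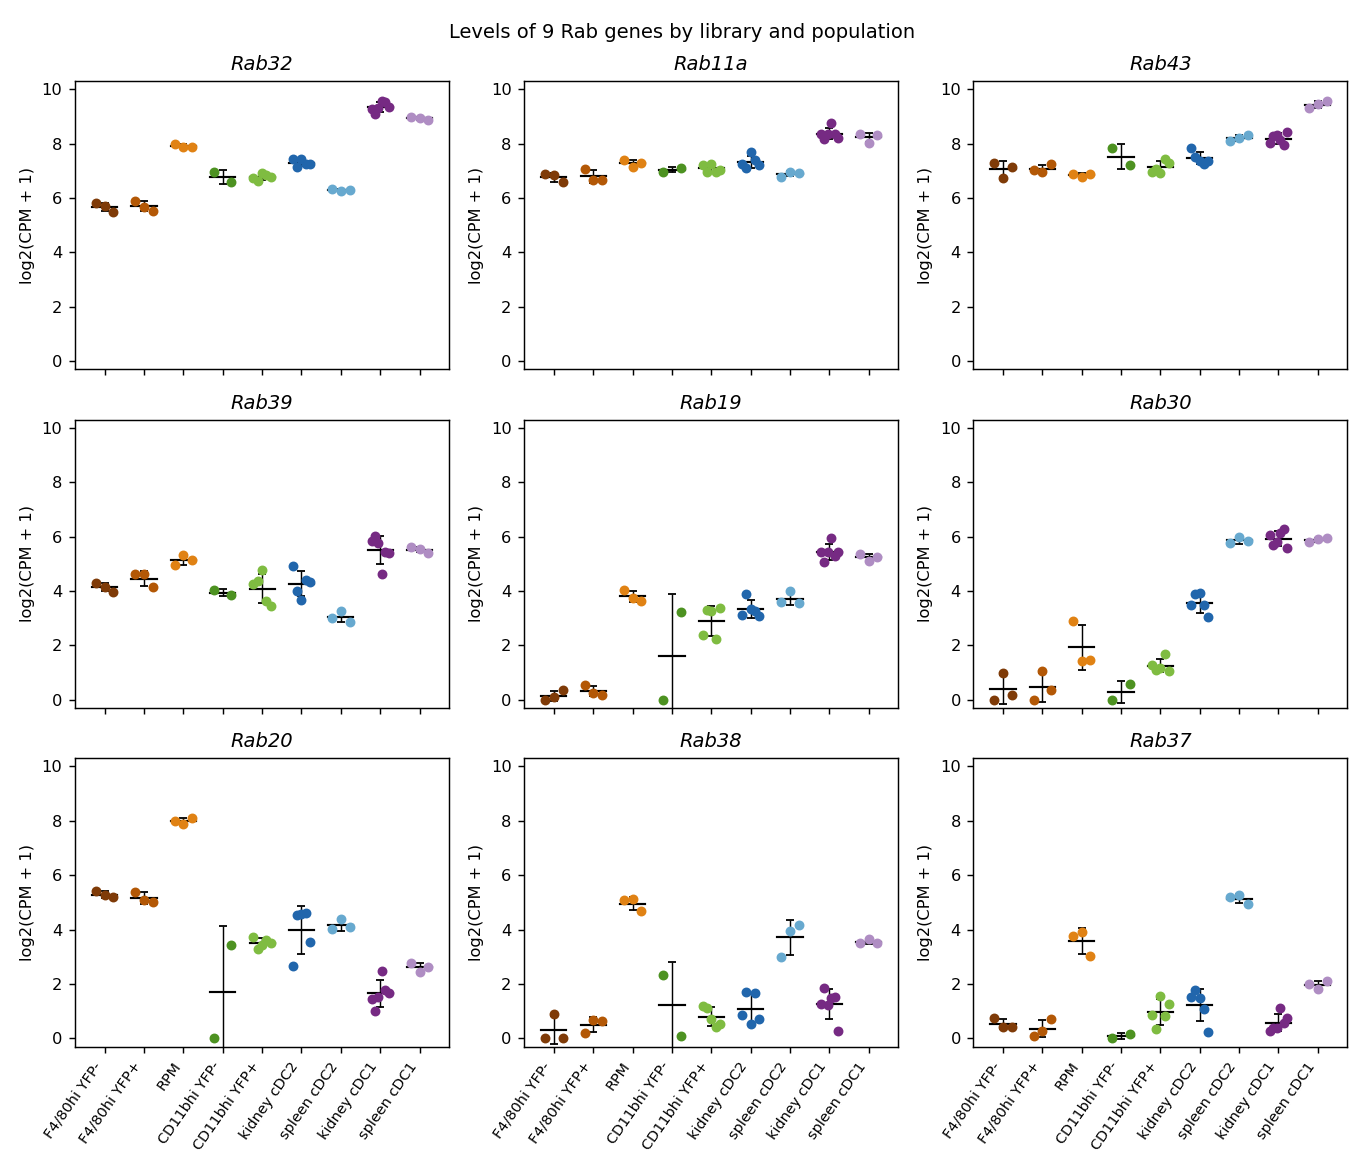
Levels of 9 Rab genes in each library (points), with the mean and SD of log2(CPM + 1) per population. Rab32 and Rab11a are highest in both cDC1 groups, Rab43 in spleen cDC1, Rab20 and Rab38 in RPM and Rab37 in spleen cDC2, and Rab30 is low in kidney cDC2 and in all macrophage groups.

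Of 10 tested endoplasmic reticulum and Golgi members, 2 were higher and 1 lower in spleen cDC1, the higher ones being Rab43 and Rab33b. Rab43, known from mouse CD8+ dendritic cells for a part in cross-presentation, was 628, 703 and 748 CPM in spleen cDC1 and 273, 297 and 321 in spleen cDC2 (log2 fold 1.22, SE 0.18, adjusted p = 4.09e-06). In kidney it ran from 245 to 344 CPM with a median of 293 in cDC1, and was 226, 182, 163, 152 and 162 in cDC2. That difference passed the adjusted p but not the fold threshold (0.71, SE 0.13, adjusted p = 9.21e-05), and spleen cDC1 were above all other libraries of the study. On log2(TPM + 1) the spleen fold was 0.94. Rab33b, a Golgi GTPase that also recruits autophagy machinery, was 59.7, 44.5 and 63.3 CPM in spleen cDC1 and 30.3, 21.6 and 24.8 in spleen cDC2 (1.13, SE 0.27, adjusted p = 0.00227). Its kidney log2 fold was 0.09 (95% interval -0.31 to 0.50). The spleen call of Rab33b rests on a fold close to the threshold and was lost without spleen cDC2 replicate 2 (0.99) or spleen cDC1 replicate 3 (just under 1).

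Of the members lower in cDC1, Rab20, an endosome and phagosome GTPase, ran from 1.005 to 4.63 CPM in kidney cDC1 with a median of 2.07 and was 5.30, 22.04, 22.8, 23.8 and 10.55 in kidney cDC2 (log2 fold -2.88, SE 0.47, adjusted p = 2.01e-05). In spleen it was 5.91, 4.47 and 5.15 CPM in cDC1 and 15.2, 20.2 and 16.0 in cDC2 (-1.72, SE 0.61, adjusted p = 0.0427). The groups did not overlap in either tissue, but the spleen call ended without any 1 of the 6 spleen dendritic cell libraries (-1.62 to -1.83, adjusted p = 0.0585 to 0.119). Rab6b, a Golgi member, had means of 2.39 CPM in kidney cDC1 against 9.83 in cDC2 (-2.03, SE 0.53, adjusted p = 0.00444). In spleen it had 2.44 CPM in cDC1 against 10.1 in cDC2 (-2.04, SE 0.72, adjusted p = 0.0434). The spleen call of Rab6b was lost without any 1 of the cDC2 libraries (-1.96 to -2.17) and without cDC1 replicate 2 (-1.88) or 3 (-1.72). Rab37, a GTPase of secretory granules, was 3.03, 2.50 and 3.30 CPM in spleen cDC1 and 35.3, 37.7 and 29.9 in spleen cDC2 (-3.54, SE 0.72, adjusted p = 0.000452), while kidney means were 0.523 and 1.49 CPM (-1.60, SE 0.55). Rab24, linked to autophagy, was 59.2, 44.4 and 47.6 CPM in spleen cDC1 and 129, 127 and 139 in spleen cDC2 (-1.38, SE 0.24, adjusted p = 4.88e-05), and its kidney fold of -0.81 (SE 0.17) fell short of the threshold. The exons of Rab24 share 1258 of 2015 bases with Prelid1 on the other strand, and the counts do not use strand, so these values are uncertain.

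**Figure D4:**
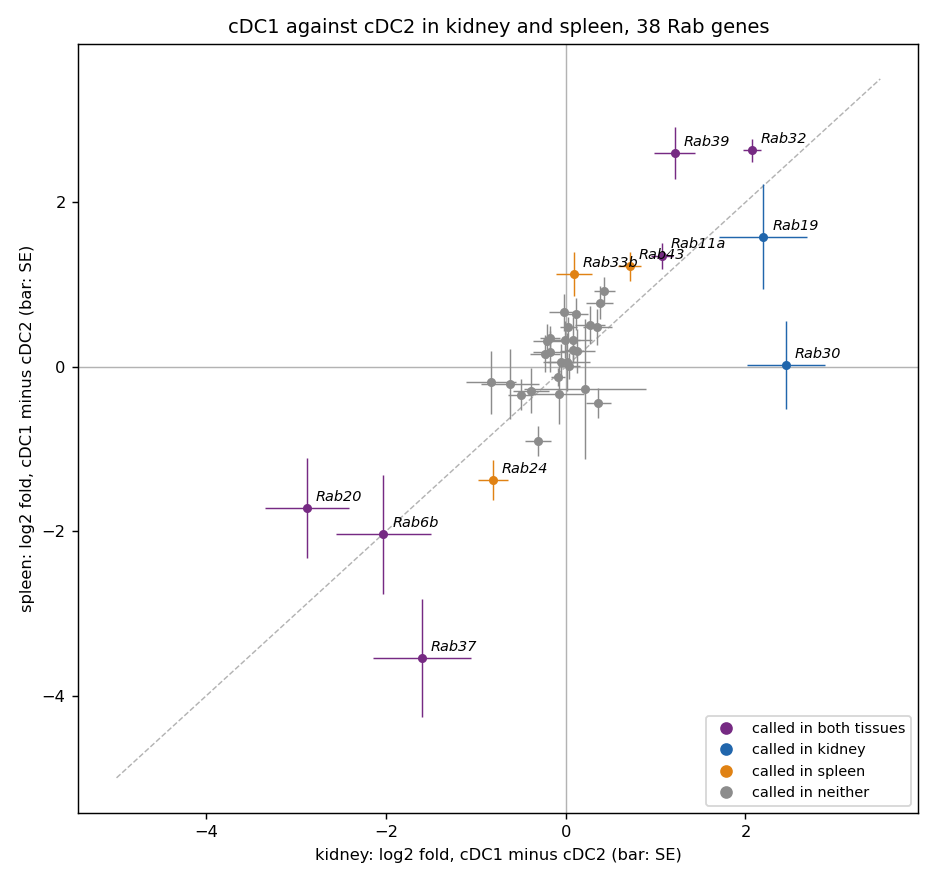
Log2 fold of cDC1 against cDC2 in kidney (x axis) and spleen (y axis) with SE bars for 38 Rab genes, coloured by whether they were called in both tissues, 1 or none. Rab32, Rab11a and Rab39 lie in the upper right, Rab20, Rab6b and Rab37 in the lower left, and Rab30 lies near 0 on the spleen axis.

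The remaining members called in kidney cDC1 against cDC2 were Rab26, Rab36 and Rab42, all higher with means of 0.661 to 1.73 CPM in cDC1. By compartment, and beside 15.7% of all genes, kidney cDC1 had 1 of 7 tested recycling members higher, 1 of 4 lysosome-related, 1 of 4 surface-directed, 1 of 10 endoplasmic reticulum and Golgi members higher and 1 lower, and 1 of 8 early endosome members lower. Of 5 regulated secretion members 1 was higher (Rab26) and 1 lower (Rab37), and of 10 members in none of these lists 4 were higher (Rab19, Rab36, Rab39 and Rab42). No member of the late endosome and lysosome list (4 tested) was called in kidney.

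Comparing the tissues within a lineage, kidney against spleen, Rab37 and Rab38 were called lower in kidney in all 3 lineages (cDC1, cDC2 and the macrophage pair F4/80hi YFP- against RPM). The share of all genes called in all 3 lineages was not computed, so this overlap is not read as a trait of the family. Among cDC1, 0 of 52 members were called higher in kidney and 4 lower (11.1% of all genes called). Among cDC2, 6 were called higher and 6 lower (18.8% of all genes). Among macrophages 3 were called higher in kidney and 7 lower (20.1% of all genes). The median log2 fold of the members was 0.01, 0.13 and -0.31, against 0.12, 0.13 and 0.03 over all genes. Kidney cDC1 and cDC2 libraries were of both name prefixes and spleen libraries of 1, so these folds use the prefix term.

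Rab38, which with Rab32 brings enzymes to melanosomes, was 10.2, 11.6 and 10.4 CPM in spleen cDC1, 6.93, 14.6 and 17.2 in spleen cDC2 and 32.8, 33.7 and 24.6 in RPM. No kidney library exceeded 4.09 CPM, so every spleen library lay above every kidney library. The log2 folds of kidney against spleen were -3.05 (SE 0.83, adjusted p = 0.00964) in cDC1, -3.52 (SE 0.83, adjusted p = 0.00193) in cDC2 and -6.59 (SE 1.13, adjusted p = 4.11e-05) in macrophages. The macrophage fold depends on levels of 0, 0.864 and 0 CPM in F4/80hi YFP- cells. Its size is thus uncertain, and it ran from -11.87 to -4.55 over the alternatives. Without the SR17_017 libraries the cDC1 value was -3.22 (adjusted p = 0.0555). Rab37 was highest in spleen cDC2 and had 12.6, 14.2 and 7.21 CPM in RPM, with at most 2.44 in any kidney library. Its folds were -2.53 (SE 0.63, adjusted p = 0.00510) in cDC1, -4.48 (SE 0.72, adjusted p = 2.07e-05) in cDC2 and -4.66 (SE 0.80, adjusted p = 4.21e-05) in macrophages.

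In cDC1 the other calls were Rab33b (-1.53, SE 0.24, adjusted p = 3.90e-05) and Rab43 (-1.33, SE 0.16, adjusted p = 6.29e-07), both at the library values given above. Rab32 and Rab11a, the cDC1-high members, had folds of 0.51 (95% interval 0.25 to 0.76) and 0.26 (-0.04 to 0.55) between kidney and spleen cDC1.

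In cDC2 the lower members included 2 early endosome GTPases. Rab5c was 32.04, 31.8, 53.7, 20.9 and 22.3 CPM in kidney and 82.3, 78.8 and 79.7 in spleen (-1.22, SE 0.35, adjusted p = 0.00866). Rab21, which carries integrins, was 84.6, 66.2, 73.3, 95.4 and 79.3 CPM in kidney and 151, 165 and 184 in spleen (-1.02, SE 0.17, adjusted p = 4.02e-05). The groups of both genes did not overlap, but Rab21 sat at the fold threshold, with -0.97 (adjusted p = 0.000264) when libraries of the same sort code were blocked, and it was lost without kidney cDC2 replicate 2 (-0.99) or 5 (just under the threshold). Rab30 was lower too (-2.37, SE 0.51, adjusted p = 0.000759).

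Rab32 and Rab39 went the other way and were higher in kidney cDC2, with log2 folds of 1.07 (SE 0.13, adjusted p = 2.76e-07) and 1.13 (SE 0.29, adjusted p = 0.00395). Of the regulated secretion members, Rab3d was 32.4, 30.4, 48.0, 42.1 and 33.9 CPM in kidney and 23.6, 12.6 and 15.1 in spleen (1.33, SE 0.37, adjusted p = 0.00701), and Rab3a had means of 9.28 and 3.49 CPM (1.60, SE 0.45). On log2(TPM + 1) the folds were 0.29 for Rab32, 0.26 for Rab39 and 0.56 for Rab3d, none of them called, on a scale where the median of all genes shifted by -0.55. The Rab32 call was also lost without the SR17_017 libraries (0.97) and without spleen cDC2 replicate 2 (0.98), that of Rab39 without spleen cDC2 replicate 3 (0.97) and that of Rab3d without spleen cDC2 replicate 2 (1.08, adjusted p = 0.0679).

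**Figure D5:**
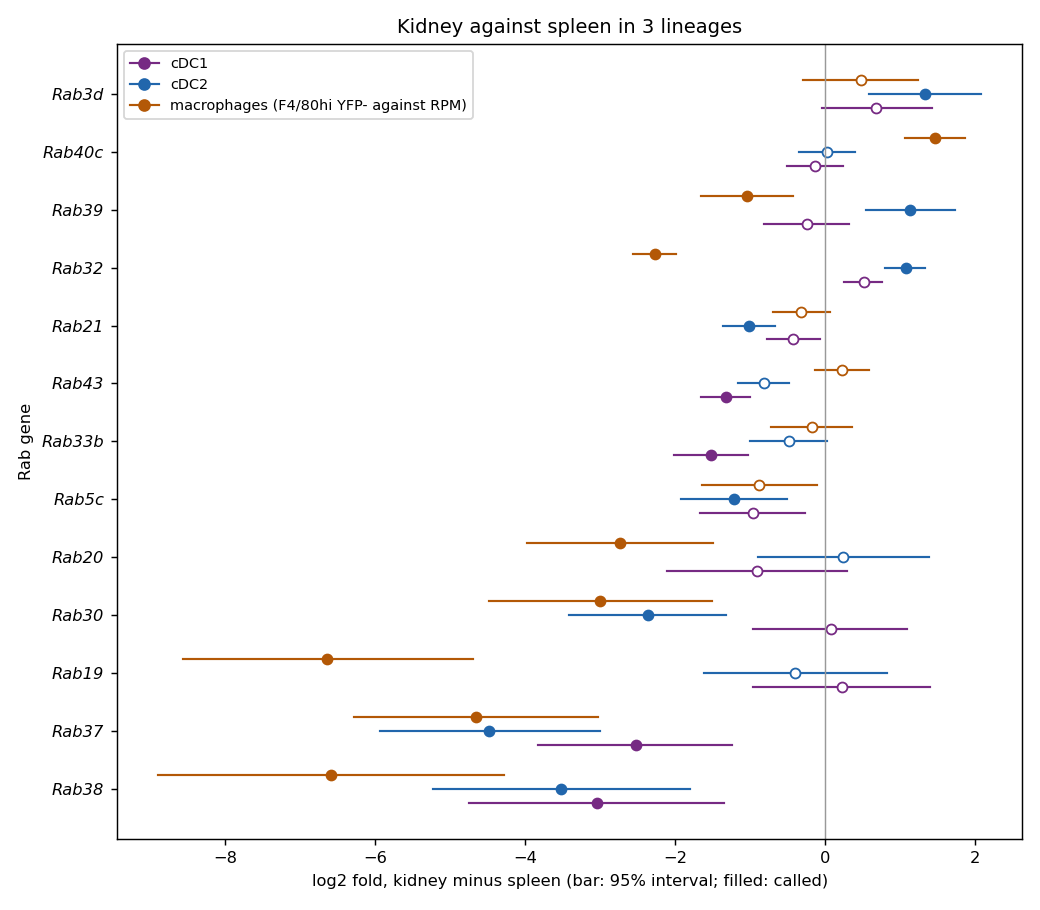
Log2 fold of kidney against spleen with its 95% interval for 13 Rab genes in cDC1, cDC2 and macrophages (F4/80hi YFP- against RPM); filled points were called. Rab37 and Rab38 are below 0 in all 3 lineages, and Rab32 is above 0 in cDC2 and below 0 in macrophages.

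Red pulp macrophages carried the endosome and phagosome member Rab20 at the highest mean of the 9 populations. It was 254, 236 and 275 CPM in RPM against 41.7, 37.3 and 35.4 in F4/80hi YFP- cells, a log2 fold of -2.74 for kidney against spleen (SE 0.61, adjusted p = 0.000911). Rab32 was 255, 236 and 236 CPM in RPM and 55.2, 51.1 and 44.0 in F4/80hi YFP- cells (-2.27, SE 0.14, adjusted p = 4.04e-13). Rab19 was 15.4, 12.5 and 11.3 CPM in RPM and at most 0.444 in any F4/80hi library (-6.64, SE 0.94, adjusted p = 2.69e-06). The size of the Rab19 fold depends on levels near 0 and ran from -8.12 to -3.78 over the alternatives. All 3 genes separated the macrophages of the tissues without overlap, and for Rab32 the direction was opposite to that in cDC2. Rab39 was 30.1, 39.0 and 34.2 CPM in RPM and 18.4, 16.8 and 14.7 in F4/80hi YFP- cells (-1.05, SE 0.30, adjusted p = 0.00942), a call lost without RPM replicate 2 (-0.95) or F4/80hi YFP- replicate 3 (-0.97). Rab40c, whose protein carries a SOCS box for ubiquitin ligase assembly, was the member above 10 CPM that was higher in kidney, at 66.0, 57.4 and 43.2 CPM against 21.9, 20.6 and 18.1 (1.46, SE 0.20, adjusted p = 1.08e-06).

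Against spleen cDC2, RPM had 11 members called higher and 6 lower (30.0% of all genes called), with a median log2 fold of 0.40 over the members and 0.00 over all genes. Markers of other cells were also higher in RPM, with summed means of 334 against 106 CPM for endothelium (8 genes, 1 at 0 in each), 160 against 52.1 for B cells (6 genes, 0 and 1 at 0), 84.3 against 15.7 for neutrophils (5 genes, 1 and 2 at 0) and 39.1 against 0.109 for erythroid cells (6 genes, 4 and 5 at 0). Their part in the Rab differences was not tested. Rab20 led the endosome members (3.90, SE 0.64, adjusted p = 1.31e-05). Rab31, which sorts between the Golgi and endosomes, was 150, 211 and 190 CPM in RPM and 51.7, 48.4 and 36.03 in spleen cDC2 (2.02, SE 0.24, adjusted p = 6.27e-08). Rab12, which acts in the degradation of the transferrin receptor, was 38.8, 41.9 and 35.6 CPM against 10.8, 10.4 and 11.1 (1.85, SE 0.23, adjusted p = 1.89e-07). The groups were apart for both. Rab9, of transport from late endosomes to the Golgi, was 39.0, 29.7 and 34.4 CPM against 11.3, 12.4 and 16.2 (1.37, SE 0.23, adjusted p = 1.94e-05). Rab34, which positions lysosomes, was 43.2 and 30.6 CPM in RPM replicates 1 and 2 but 2.46 in replicate 3, against at most 0.229 in spleen cDC2 (7.43, SE 1.78, adjusted p = 0.00126). Its RPM level thus rests on 2 of 3 libraries.

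Among the other members higher in RPM, Rab1 of the early secretory route was 297, 339 and 320 CPM against 152, 153 and 162 (1.03, SE 0.12, adjusted p = 5.98e-08). It fell under the fold threshold without RPM replicate 2 (0.99) or spleen cDC2 replicate 1 or 2 (0.98 each), and on log2(TPM + 1) (0.62). Rab32 (1.63, SE 0.14), Rab39 (2.22, SE 0.31) and Rab3a (1.67, SE 0.46) were higher as well. Rab13 had 10.9, 11.3 and 8.44 CPM in RPM and no read in spleen cDC2, at least 154-fold (counting error only). Lower in RPM were Rab30 (3.29 against 57.4 CPM, -4.10, SE 0.62), Rab27a (7.28 against 24.5, -1.75, SE 0.36), Rab43 (115 against 297, -1.37, SE 0.18), Rab21 (65.7 against 167, -1.34, SE 0.19) and Rab8a. Rab8a was 271, 194 and 171 CPM in RPM and 514, 437 and 423 in spleen cDC2 (-1.11, SE 0.19, adjusted p = 1.94e-05), and without RPM replicate 3 the fold was -0.98.

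Whether the macrophage to cDC2 difference is the same in kidney and spleen was tested directly, with F4/80hi YFP- against kidney cDC2 set against RPM against spleen cDC2. Of 52 members, 2 had a positive and 13 a negative difference (24.2% of all genes were called), and the median was -0.41 over the members and -0.04 over all genes. Rab32 had the smallest adjusted p among them, with a difference of -3.34 (SE 0.19, adjusted p = 3.61e-13). In kidney its macrophages were below cDC2 (50.1 against 157 CPM) and in spleen above (242 against 78.2). Rab20 differed by -2.99 (SE 0.82, adjusted p = 0.00669), Rab19 by -6.24 (SE 1.14, adjusted p = 0.000129) and Rab13 by -9.04 (SE 2.36, adjusted p = 0.00500, a fitted value that depends on a group with no read). The Rab19 value depends on F4/80hi YFP- levels near 0 and ran from -7.72 to -2.71 over the alternatives. Rab34 differed by -5.54 (SE 2.08, adjusted p = 0.0453). The call of Rab34 ended without any 1 of several libraries: RPM replicates 1 and 2 (-4.79 and -5.37), all 3 spleen cDC2 (-4.85 to -5.97), all 3 F4/80hi YFP- (-5.08 to -5.80) and kidney cDC2 replicates 3, 4 and 5 (-5.13 to -5.57). On the positive side stood Rab40c (1.43, SE 0.27, adjusted p = 0.000156) and Rab43 (1.04, SE 0.24, adjusted p = 0.00156). Rab43 was just under the threshold without kidney cDC2 replicate 4. Without the SR17_017 libraries the members called numbered 8 in place of 15, and Rab13 (adjusted p = 0.0685), Rab20 (0.0997) and Rab34 (0.312) were no longer among them.

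Within the kidney, F4/80hi YFP+ cells differed from kidney cDC2 in 7 members, 2 higher and 5 lower (19.4% of all genes called; median log2 fold 0.18 over the members, 0.02 over all genes). Rab32 was 58.3, 50.1 and 45.4 CPM in F4/80hi YFP+ cells, below all kidney cDC2 libraries (-1.68, SE 0.13, adjusted p = 5.88e-11). Rab30 was at most 1.07 CPM there (-4.57, SE 0.69, adjusted p = 7.27e-06). Rab27a had 10.4, 7.53 and 20.5 CPM against 15.9, 30.1, 18.9, 33.9 and 31.0 (-1.06, SE 0.34, adjusted p = 0.0173). The Rab27a groups overlapped, and its call was lost without F4/80hi YFP+ replicate 1 (-0.87) or 2 (-0.73) and without kidney cDC2 replicate 2 (just under the threshold), 4 (-0.92) or 5 (-0.97).

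In CD11bhi YFP+ cells against kidney cDC2, 0 of 52 members were called higher and 1 lower, which is 1.92% of the members beside 2.51% of all genes. That member was Rab30, at 1.42, 1.13, 1.26, 2.22 and 1.10 CPM in CD11bhi YFP+ cells (-2.98, SE 0.52, adjusted p = 0.000435), all below the 7.16 to 14.3 of kidney cDC2. Rab32 had 106, 96.8, 120, 115 and 108 CPM, below all 5 kidney cDC2 libraries, with a fold of -0.43 (SE 0.12, adjusted p = 0.0303) that was under the threshold for a call. Set against the F4/80hi YFP+ group, they had 2 members called higher and 0 lower (12.1% of all genes). These were Rab32 (1.25, SE 0.16, adjusted p = 1.55e-06) and Rab19 (4.70, SE 0.93), whose mean was 6.95 CPM. The groups differ in library prefix, without the prefix term 6 members were called, and without F4/80hi YFP+ replicate 2 there were 4. On log2(TPM + 1) the Rab32 fold was 0.90.

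The YFP split addresses whether cells with a history of Clec9a expression differ from neighbours in the same gate. In F4/80hi cells 0 of 52 members were called (0.00701% of all genes, 1 gene), 1 member had an unadjusted p under 0.05 (Rab3b), and DESeq2 called 0. Rab32 had 55.2, 51.1 and 44.0 CPM in YFP- and 58.3, 50.1 and 45.4 in YFP+ cells, a log2 fold of 0.03 (95% interval -0.24 to 0.31). For Rab20 the fold was -0.12 (-1.29 to 1.05). In CD11bhi cells 4 members were called higher in YFP+ cells and 0 lower (5.34% of all genes), namely Rab4a, Rab23, Rab36 and Rab37, all with means under 10 CPM in both groups. Rab4a, for recycling from early endosomes, had 2.10 CPM against 1 read in the YFP- group, a ratio of 67.1 (95% interval 12.04 to 2650, counting error only). The count was 0 when CD11bhi YFP- replicate 1 was left out, 14 when replicate 2 was left out, 2 without CD11bhi YFP+ replicate 1 or 2, and 0 when only these 7 libraries were fitted. Rab32 was 122 and 95.1 CPM in CD11bhi YFP- cells, a fold of 0.01 (-0.27 to 0.29).

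Rab17 and Rab25, which act in polarised epithelial cells, and Rab3b of regulated secretion were present at a trace in kidney libraries. Rab17 had means of 1.48 and 2.01 CPM in F4/80hi YFP- and YFP+ cells and 0 in RPM, at least 21.4-fold higher in F4/80hi YFP- cells. Rab25 had 1.84 and 1.96 CPM in the F4/80hi groups, 1.08 in kidney cDC2 and no read in spleen cDC2, at least 16.3-fold. Rab3b had 2.05 ± 1.94 CPM in F4/80hi YFP+ cells and no read in kidney cDC2, at least 60.1-fold. These bounds set a group mean against 3 counts over the group with no read, so they cover counting error only. That of Rab3b does not hold for F4/80hi YFP+ replicate 2, which was at 0 CPM. The summed level of 8 kidney tubule markers was also higher in F4/80hi cells than in RPM or spleen dendritic cells, as Rab17 and Rab25 were. Rab3b was at 3.85, 0 and 2.31 CPM in the F4/80hi YFP+ libraries, so its level there rests on replicates 1 and 3. It was at 0, 0 and 0.0688 CPM in F4/80hi YFP- and at 0 in all kidney cDC2 libraries. The tubule sum was 337 to 839 CPM in F4/80hi YFP- libraries and 135 to 684 in F4/80hi YFP+, with 0 markers undetected. It was 3.63 to 213 CPM in kidney cDC2, 3.83 to 748 in kidney cDC1, 8.84 to 12.2 in CD11bhi YFP+ and 0.361 to 5.01 in RPM (3 markers at 0), and 3.60 to 7.91 in spleen dendritic cells (6 at 0 in each subset). The part of tubule RNA in the Rab17, Rab25 and Rab3b levels was not tested.

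Regulators of Rab proteins were counted in the same comparisons. Of 32 GEFs tested, 2 were called higher and 6 lower in kidney cDC1 against cDC2 (25% of the list, beside 15.7% of all genes), and 3 and 2 in spleen (15.6%, beside 14.6%). Dennd2d was higher in cDC1 of both tissues, with folds of 1.77 (SE 0.18) in kidney and 3.14 (SE 0.26) in spleen. Hps4, a subunit of the exchange factor for Rab32 and Rab38, was also higher in both, with smaller folds, and was named after its values were seen. Its means were 94.1 against 42.9 CPM in kidney (1.18, SE 0.20, adjusted p = 4.62e-05) and 51.7 against 20.02 in spleen (1.37, SE 0.27, adjusted p = 0.000369). Hps4 was higher in kidney than in spleen too, for cDC1 (1.02, SE 0.26) and cDC2 (1.22, SE 0.26). Rin2, a GEF for Rab5, was lower in cDC1, at 9.51 against 47.0 CPM in kidney (-2.29, SE 0.25) and 2.31 against 89.6 in spleen (-5.27, SE 0.40, adjusted p = 3.06e-11). Dennd3, a GEF for Rab12, was lower too, at 11.4 against 57.7 CPM in kidney (-2.33, SE 0.29) and 13.9 against 204 in spleen (-3.88, SE 0.43).

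Of 37 GAPs, 5 were higher and 4 lower in kidney cDC1 (24.3%) and 1 and 5 in spleen cDC1 (16.2%). Of 42 effectors, 1 was higher and 5 lower in kidney (14.3%) and 1 and 3 in spleen (9.52%), below the share of all genes in each tissue. Tbc1d4 (AS160), a GAP that holds back insulin-regulated glucose transporter traffic, had its highest mean in spleen cDC2 at 1652 CPM, against 44.7 in kidney cDC2 (-5.26, SE 0.35, adjusted p = 5.46e-12). It was 398 in spleen cDC1 (-2.05, SE 0.36, against spleen cDC2) and 100 in RPM. Within kidney the order of the subsets was the other way, with 174 CPM in cDC1 and 44.7 in cDC2 (1.94, SE 0.27, adjusted p = 1.89e-06). Between kidney and spleen cDC2, 5 GEFs were higher and 6 lower, 1 GAP higher and 7 lower, and 3 effectors higher and 5 lower. These are 34.4%, 21.6% and 19% of the lists, beside 18.8% of all genes. Rab3il1, a GEF for Rab8 and a binding partner of Rab3, was high in macrophages. It had 699 CPM in RPM against 2.98 in spleen cDC2 (7.86, SE 0.36, adjusted p = 4.04e-16) and 501 in F4/80hi YFP+ cells against 41.7 in kidney cDC2 (3.35, SE 0.25, adjusted p = 2.62e-11). Lrrk2, a kinase that phosphorylates Rab proteins, had 266 CPM in spleen cDC2 and 3.20 in RPM (-6.34, SE 0.51, adjusted p = 5.41e-11), and 88.1 in kidney cDC2 against 5.64 in F4/80hi YFP+ cells (-3.81, SE 0.45). The motor Myo5a, which pulls Rab27a and Rab11 carriers along actin, was at 138 CPM in F4/80hi YFP- cells and 3.42 in RPM (5.33, SE 0.37, adjusted p = 4.40e-12).

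Between F4/80hi YFP- cells and RPM, 3 GEFs were higher and 2 lower, 3 GAPs and 6, and 6 effectors and 6 (15.6%, 24.3% and 28.6% of the lists, beside 20.1% of all genes). Between RPM and spleen cDC2 the counts were 5 and 8 GEFs, 2 and 9 GAPs, and 8 and 9 effectors (40.6%, 29.7% and 40.5%, beside 30.0% of all genes). Of the 8 genes that prenylate, escort or extract Rab proteins, 2 were higher in RPM (Rabggta, a subunit of the Rab prenylating enzyme, and Rabac1), and 0 were called in either comparison of cDC1 with cDC2. Rabac1, a Rab acceptor of the Golgi, was higher in kidney than in spleen for cDC1 (155 against 75.0 CPM, 1.38, SE 0.27) and cDC2 (192 against 72.2, 1.66, SE 0.27). The escort gene Chm was lower in kidney in both (-1.01, SE 0.31, and -1.28, SE 0.29). In F4/80hi YFP+ against YFP- cells, 0 GEFs, GAPs, effectors or prenylation genes were called by edgeR.

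Some levels rest on reads that are hard to place. Over all libraries the RSEM expected count exceeded the STAR count by a factor of 3.97 for Rab11b, 2.59 for Rab5b, 2.17 for Rab7 and 1.63 for Rab5a, where the median over 9554 genes was 0.970. Levels of these 4 are therefore uncertain in both CPM and TPM. On GRCm38 the GENCODE annotation places Rab32 at chromosome 10: 10545002 to 10558265, Rab11a at chromosome 9: 64715299 to 64737758, Rab39 at chromosome 9: 53684110 to 53706232, Rab43 at chromosome 6: 87788853 to 87812164, Rab30 at chromosome 7: 92741603 to 92844535 and Rab20 at chromosome 8: 11453518 to 11478710. Rab38 lies at chromosome 7: 88430273 to 88491572, Rab37 at chromosome 11: 115091431 to 115162236 and Rab19 at chromosome 6: 39381175 to 39390380. All 9 are protein-coding genes, and the gene listed as Rab1 in the files is Rab1a in that annotation.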

How the data were processed

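RNA of 33 libraries from 9 sorted populations was measured. Per the labels' protocols, polyA RNA was isolated (PicoPure) and turned into cDNA (SMARTseq v4) and then libraries (MicroPlex v2), which keep no strand. Per the submitters' processing notes, the authors used STAR and RSEM on mm10; versions and settings are not given in the sources used here. The deposited counts are whole-number reads per gene from STAR, of which the unstranded column was used. The deposited expected counts and TPM per gene are RSEM output, per the file headers. The deposited FPKM values were not used. RSEM expected counts were rounded to whole numbers for an alternative fit.

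The main test was edgeR 4.0.16 under R 4.3.3, with limma 3.58.1 and DESeq2 1.42.0 as alternatives. Genes were kept by filterByExpr (minimum count 10, minimum total 15), libraries were scaled by TMM, and 1 quasi-likelihood model with terms for group and library-name prefix (GS in 21 libraries, BS in 12, with no meaning given in the labels) was fitted, with Benjamini-Hochberg adjustment. All CD11bhi libraries are BS, and all spleen and F4/80hi libraries GS, so the prefix term is estimated in kidney cDC1 and cDC2. The script was tested on simulated data. Named members were called ones whose higher group reached 10 CPM on average, at most 10 per direction (5 for an interaction), and the 5 with the highest TPM; of the regulators, at most 4 called genes per list and comparison. Values of uncalled members set beside them were chosen after their values were seen. The members, lists and tests were chosen with earlier results of these data known. Libraries of 1 sort code were checked as pairs by the correlation of their deviations from the group means. The threshold of 0.1 was passed by each of 3 pairs for the F4/80hi YFP split (0.112 to 0.426), spleen cDC1 against cDC2 (0.126 to 0.299) and kidney against spleen cDC2 (0.101 to 0.124), so these were treated as paired by sort code in an alternative fit. Alternatives also covered scaling, filters, TPM pseudocounts of 1 and 0.1, fewer libraries and leaving out each library.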

Additional observations from a re-analysis of the deposited data

Results flagged for a closer look

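Each named member was looked at in each population of 4 to 10 libraries, which made 75 combinations. In 12 of them a library had a gap to its nearest neighbour that was large beside the range of its group. Chance alone marks about 1 in 20 where groups are independent. Here the same libraries recur for every member, so that rate is no yardstick for the 12. Kidney cDC1 replicate 4 accounted for 7 of them as the highest of 6 libraries, with levels of 433 CPM for Rab11a, 60.6 for Rab19, 117 for Rab24, 3.08 for Rab34, 32.8 for Rab3d, 49.6 for Rab5c and 500 for Rab8a. It belongs to the sort code SR17_017. Kidney cDC2 replicate 3, of the same sort code, was highest of 5 for Rab24 at 203 CPM, and kidney cDC2 replicate 2 was highest for Rab19 at 13.9. Among CD11bhi YFP+ libraries, replicate 4 was highest for Rab30 at 2.22 CPM and for Rab34 at 10.1, and replicate 5 for Rab3d at 79.0. Replicate 4 had the fewest gene reads (8729224), 64% of its reads not assigned to a gene, beside 28.0% to 36.8% in the other CD11bhi libraries, and 7.42% multimapping reads; their part in its levels was not tested.

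A test of the difference itself separated kidney from spleen for 2 named members in cDC1 against cDC2, namely Rab30 at 2.44 and Rab39 at -1.38 (log2, kidney minus spleen). For the macrophage to cDC2 difference it separated the tissues for Rab40c at 1.43, Rab43 at 1.04, Rab13 at -9.04, Rab19 at -6.24, Rab34 at -5.54, Rab32 at -3.34 and Rab20 at -2.99.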

How the results depend on the processing

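Of 62 pairs of a named member and a comparison, 39 stayed called under every alternative run and 0 changed sign. Counts of called members moved beyond 1.5 times as follows. For CD11bhi YFP+ against YFP- cells (4 called), RSEM expected counts gave 2, log2(TPM + 0.1) 8, fitting only these libraries 0 and a replicate block by sort code 2. For CD11bhi YFP+ against F4/80hi YFP+ (2), the fit with no prefix term gave 6, log2(TPM + 1) 6, log2(TPM + 0.1) 7, only these libraries 4 and no fold threshold 6. For F4/80hi YFP+ against kidney cDC2 (7), the TPM scales gave 11 and 13 and no fold threshold 17. For CD11bhi YFP+ against kidney cDC2 (1), DESeq2 and no fold threshold each gave 2. For kidney against spleen cDC1 (4), the TPM scales gave 9 and 11 and no fold threshold 12. No fold threshold gave 16 in spleen cDC1 against cDC2 (10), 20 in kidney against spleen cDC2 (12) and 18 in F4/80hi YFP- against RPM (10). For the cDC interaction (2), DESeq2, log2(TPM + 0.1) and no fold threshold each gave 4, no prefix term 1, and leaving out both CD11bhi YFP- libraries, chosen after seeing the data, 4. Without the SR17_017 libraries the counts were 7 for kidney against spleen cDC2, 1 for the cDC interaction and 8 for the macrophage interaction (15). Leaving out each library gave 0 to 14 for the CD11bhi YFP split, 2 to 4 for CD11bhi YFP+ against F4/80hi YFP+ and 0 to 4 for the cDC interaction. That interaction count was 0 without spleen cDC2 replicate 3 or spleen cDC1 replicate 1, 1 without any other spleen cDC library, and 4 without kidney cDC2 replicate 5. The causes of these changes were not tested.

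With sort code as a replicate block, the counts were 0, 11 and 11 in the 3 comparisons treated as paired (F4/80hi YFP split, spleen cDC1 against cDC2, kidney against spleen cDC2), and of their named members Rab21 alone lost its call. Where libraries share only a code, the block gave 8 for kidney cDC1 against cDC2, with Rab39 at 0.89, and 12 for the macrophage interaction, with Rab34 at -5.11 (adjusted p = 0.0818). On log2(TPM + 1) the median of all genes moved by -0.55 for kidney against spleen cDC2 and by 0.52 for the macrophage interaction. With 2 CD11bhi YFP- libraries and gene reads down to 8729224, differences in members under 10 CPM are the least certain.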
